A study of Mus musculus with 24 samples.

Results

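The 9790 regions described here were acetylated at an end of a protein-coding gene in all 4 H3K27ac peak lists of the study. They were found by merging the overlapping peaks of the 4 lists into 49367 union regions, keeping the 19792 regions that every list overlapped, and taking those that lie within 1000 bp of either end of a protein-coding gene in RefSeq's annotation of GRCm38.p6, the assembly that the submitters' notes call mm10. They made up 49.5% of the shared regions (Wilson 95% interval 48.8 to 50.2%, counting error only) and 19.8% of all regions, and 10002 shared regions lay further from any gene end. The regions were thus chosen by the measured presence of a peak in all 4 lists, and their number describes that choice.

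Limb buds of mouse embryos were compared between controls and embryos deficient in Sox9, the transcription factor that cartilage formation requires. The H3K27ac libraries were a control at E11.5, a control at E12.5, a library labelled Sox9null at E11.5 and a library labelled Sox9cKO at E12.5, so that the kind of deficiency and the stage go together among the deficient libraries. Each group had 1 library, so no difference between groups was tested and every value describes these libraries. The strain, the alleles, the Cre driver behind the conditional deletion, the number of embryos pooled, and which limbs were taken are not stated in the labels used here. In a whole limb bud, fewer cells that carry a mark and less of the mark per cell cannot be told apart.

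H3K27ac is an acetylation of a lysine in the tail of histone H3, written by coactivators of the CBP family at active promoters and enhancers. Promoters of widely used genes carry it in nearly every cell type, and most of them are CpG islands, stretches rich in the CG dinucleotide whose cytosines stay unmethylated. Enhancers differ more between cell types and are often poor in CG. In the limb bud, a broad mark also covers patterning genes such as the Hox clusters while mesenchymal cells condense and start the cartilage programme.

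A region's score in a list is the highest score of its peaks, taken from the authors' own peak scores. Its rank is the percentile of that score, from 0 to 100, among the 19792 regions that all lists share. The same regions are ranked in every list, so the number of peaks in a list does not enter. Its width is the number of bp that the list covers within the region. The scores pile up at 3100 near the top, where 1420 of the 9790 gene-end regions lay at or above it in the E11.5 control, 1070 in the E12.5 control, 567 in the Sox9null-labelled list and 2430 in the Sox9cKO-labelled list. A region at exactly 3100 therefore has a rank of 95.4, 96.1, 98.0 or 92.3 in these lists, and a difference between those ranks is no difference in score. Values below give the E11.5 control first, then the E12.5 control, then the list labelled Sox9null and last the list labelled Sox9cKO, unless stated otherwise.

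Promoter sequences of 8 gene-end regions show the range of base composition that goes with the largest rank differences described below. They are from RefSeq's promoter table (GRCm38.p6), run from 250 bp before to 50 bp after the gene start, 5′ to 3′ on the strand of the gene, and have every CG dinucleotide in capitals. The first pair belongs to the genes with known start among those that ranked furthest above the E11.5 control in the E12.5 control. Pdcd4 (chr19:53891981-53892280, plus strand) encodes an inhibitor of translation and has 2 CG dinucleotides, and Angptl1 (chr1:156838773-156839072, plus strand) encodes a secreted angiopoietin-like protein and has 6.
Pdcd4: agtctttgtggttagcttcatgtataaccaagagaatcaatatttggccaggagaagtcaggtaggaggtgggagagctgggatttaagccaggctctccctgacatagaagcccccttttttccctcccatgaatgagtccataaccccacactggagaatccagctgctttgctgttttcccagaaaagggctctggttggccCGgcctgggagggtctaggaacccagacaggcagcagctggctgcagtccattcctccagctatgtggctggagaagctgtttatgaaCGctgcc
Angptl1: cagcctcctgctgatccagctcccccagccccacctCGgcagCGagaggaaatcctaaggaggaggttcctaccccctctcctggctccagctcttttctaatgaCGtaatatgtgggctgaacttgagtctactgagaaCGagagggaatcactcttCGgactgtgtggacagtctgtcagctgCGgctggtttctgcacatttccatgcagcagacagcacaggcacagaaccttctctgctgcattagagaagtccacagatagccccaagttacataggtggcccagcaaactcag

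The promoters of Lemd1 (chr1:132191186-132191485, plus strand), which encodes a LEM domain protein, and Tmem267 (chr13:119487836-119488135, plus strand), which encodes a membrane protein, stand for the opposite end, where the E12.5 control ranked furthest below the E11.5 control. They have 15 and 22 CG dinucleotides. The Tmem267 sequence holds 1 GC box (GGGCGG or its reverse complement CCGCCC), and the Lemd1, Pdcd4 and Angptl1 sequences hold none.
Lemd1: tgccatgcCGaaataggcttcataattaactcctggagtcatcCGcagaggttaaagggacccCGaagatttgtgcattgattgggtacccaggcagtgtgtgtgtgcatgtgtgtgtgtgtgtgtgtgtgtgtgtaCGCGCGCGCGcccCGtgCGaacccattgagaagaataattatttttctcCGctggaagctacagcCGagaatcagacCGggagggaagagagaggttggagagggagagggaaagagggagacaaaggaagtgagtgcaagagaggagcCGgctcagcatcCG
Tmem267: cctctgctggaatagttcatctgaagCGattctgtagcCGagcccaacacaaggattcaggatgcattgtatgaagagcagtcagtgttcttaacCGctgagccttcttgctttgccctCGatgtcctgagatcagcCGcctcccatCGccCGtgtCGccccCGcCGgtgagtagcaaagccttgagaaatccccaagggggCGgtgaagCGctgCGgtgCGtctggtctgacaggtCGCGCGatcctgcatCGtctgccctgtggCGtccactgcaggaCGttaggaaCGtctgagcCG

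Fez1 (chr9:36821641-36821940, plus strand), which encodes an adaptor of axonal transport, and Ap2s1 (chr7:16738194-16738493, plus strand), which encodes a subunit of the clathrin adaptor complex of the plasma membrane, are at the 2 regions whose mean rank in the Sox9-deficient lists was furthest above that in the controls. They have 8 and 16 CG dinucleotides.
Fez1: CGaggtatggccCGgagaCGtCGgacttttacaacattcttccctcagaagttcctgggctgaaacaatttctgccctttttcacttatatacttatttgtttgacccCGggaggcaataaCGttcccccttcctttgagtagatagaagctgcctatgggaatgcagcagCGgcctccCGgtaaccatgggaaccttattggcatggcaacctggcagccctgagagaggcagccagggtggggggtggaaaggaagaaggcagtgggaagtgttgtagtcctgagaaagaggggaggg
Ap2s1: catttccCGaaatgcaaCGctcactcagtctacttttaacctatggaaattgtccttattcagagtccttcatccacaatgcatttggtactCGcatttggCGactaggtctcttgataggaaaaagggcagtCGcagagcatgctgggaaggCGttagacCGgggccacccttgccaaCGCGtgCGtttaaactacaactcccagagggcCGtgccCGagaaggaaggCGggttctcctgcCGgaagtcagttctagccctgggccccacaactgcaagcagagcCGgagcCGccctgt

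Foxc1 (chr13:31806396-31806695, plus strand), a forkhead factor of skeletal mesenchyme, and Tox3 (chr8:90348203-90348502, minus strand), which encodes an HMG-box protein, had regions among the 10 whose mean rank in the Sox9-deficient lists was furthest below that in the controls. Their promoters have 32 and 52 CG dinucleotides, the most of the 8 shown. The Tox3 sequence holds 4 GC boxes and the Foxc1 sequence 1. The Ap2s1 sequence above also holds 1, and the Fez1 sequence none.
Foxc1: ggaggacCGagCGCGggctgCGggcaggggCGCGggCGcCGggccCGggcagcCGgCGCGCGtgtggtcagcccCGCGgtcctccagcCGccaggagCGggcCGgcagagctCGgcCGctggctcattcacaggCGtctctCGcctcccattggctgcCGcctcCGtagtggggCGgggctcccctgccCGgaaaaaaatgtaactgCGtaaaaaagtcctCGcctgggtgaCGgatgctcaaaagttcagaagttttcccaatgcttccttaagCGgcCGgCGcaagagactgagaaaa
Tox3: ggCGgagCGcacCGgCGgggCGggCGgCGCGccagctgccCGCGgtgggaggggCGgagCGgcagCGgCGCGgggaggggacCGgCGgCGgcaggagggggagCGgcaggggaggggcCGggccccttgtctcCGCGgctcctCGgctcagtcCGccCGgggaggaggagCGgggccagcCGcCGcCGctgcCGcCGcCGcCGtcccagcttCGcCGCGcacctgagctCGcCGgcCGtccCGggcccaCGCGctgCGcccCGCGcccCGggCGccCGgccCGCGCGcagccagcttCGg

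The lists held between 28419 and 36937 peaks with median widths between 1141 and 1778 bp, and their depth in reads is unknown. The Sox9 gene, whose gene ends are in this set, was covered by peaks over 96.6% and 81.3% of its length in the controls and over 55.8% and 54.3% in the lists labelled Sox9null and Sox9cKO. For the Sox9-deficient lists the deposited names and the sample titles are exchanged with each other, and the titles were followed here. Tbx5, the T-box gene of the forelimb, had gene-end peaks of score 3100 in the E11.5 control and the Sox9cKO-labelled list, and none in the E12.5 control and the Sox9null-labelled list, whereas Tbx4 and Pitx1, which mark the hindlimb, had scores of 3100 in all 4.

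Regions at gene ends recurred between lists more often than regions elsewhere. Of 12560 union regions at a gene end in any list, 77.9% were in all 4 lists, against 27.2% of 36807 regions away from gene ends. Of the 9790 shared ones, 94.3% contained a gene end, 7817 touched the ends of 1 gene, 1842 those of 2 genes and 131 those of 3 or more. A gene start was among the ends of 7612 regions (77.8%), as far as the promoter table gives the strand, only gene finishes were touched by 333 (3.40%), and for 1845 the kind of end is unknown. Starts on both strands, the arrangement of divergent gene pairs, were found in 921 (9.41%). Together they touched 11077 of 21883 protein-coding genes (50.6%). A gene end is the outermost annotated position, and 49.8% of the 21262 promoter entries of protein-coding genes start exactly there. A region at a promoter inside the annotated gene was counted only where it lay within 1000 bp of an end. Regions away from gene ends can therefore hold promoters too.

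At the limit of 1000 bp, the 3 regions just inside were those nearest to Dis3l2 and Wscd2, each 998 bp from the end, and Lrrfip1, 995 bp away. The 3 just outside were nearest to Amz2 (1005 bp), Fmo2 (1006 bp) and Egfl7 (1013 bp). Ranks ran from 66.7 to 82.9 at Dis3l2, from 7.4 to 39.4 at Wscd2 and from 27.2 to 52.6 at Lrrfip1. They ran from 10.2 to 23.6 at Amz2, from 34.3 to 51.3 at Fmo2 and from 25.5 to 34.9 at Egfl7.

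Gene-end regions stood high in the score order of each list, and more so in the E11.5 control and the Sox9cKO-labelled list. Their median rank was 69.2 in the E11.5 control, 63.8 in the E12.5 control, 63.7 in the Sox9null-labelled list and 69.5 in the Sox9cKO-labelled list. Shared regions away from gene ends had median ranks of 29.5, 36.3, 36.8 and 29.3. The 2 sets share 1 ranking, so a list that ranks the first lower ranks the second higher. In scores, the gene-end medians were 1097, 874, 623 and 1604, and those of the other shared regions 249, 364, 266 and 339. These medians compare the 2 sets within a list, since the scores have no stated scale between lists. The share of gene-end regions above rank 50 was 74.97, 65.0, 64.9 and 75.6%.

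Widths at gene ends differed less between the lists than widths elsewhere. The median gene-end region was covered over 1994, 2138, 2118 and 2164 bp, and the median shared region away from gene ends over 1553.5, 2120.5, 2059.5 and 1775.5 bp. In the E12.5 control and the Sox9null-labelled list the 2 sets were of nearly equal width, and in the other 2 lists the gene-end regions were the wider. Exactly 1 peak per list was found in 8823 of the 9790 regions (90.1%). Peaks at these regions made up 29.6, 30.6, 35.4 and 28.0% of the peaks of the lists and 43.5, 37.0, 40.6 and 40.7% of the length they cover. Regions that touch only a gene finish ranked lower than those with a start, with medians of 34.4, 38.0, 40.2 and 36.1 against 70.4, 65.0, 64.9 and 70.8.

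**Figure D1:**
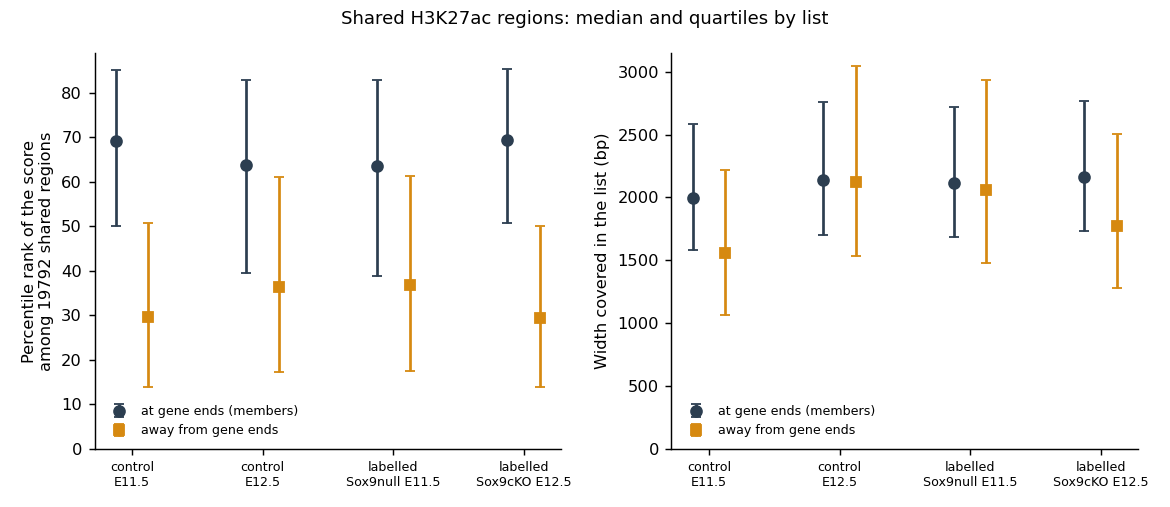
Percentile rank of the score (left) and covered width in bp (right) of shared regions at gene ends (circles, 9790 regions) and away from them (squares, 10002 regions) in each of the 4 lists, as medians with bars from the lower to the upper quartile over regions. Median ranks at gene ends are 69.2, 63.8, 63.7 and 69.5, above the 29.3 to 36.8 of the other regions in every list, and median widths at gene ends lie between 1994 and 2164 bp.

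The broadest gene-end regions included Hox clusters and other patterning genes, and most of them had similar widths in the 4 lists. A region of chromosome 6 (52201782 to 52269659) spans Hoxa3 to Hoxa13, some of which pattern the limb along its length, and was covered over 66716, 66453, 65702 and 66750 bp. The region that joins Hoxd9 to Hoxd13 and Evx2 (chromosome 2, 74647617 to 74702613) was covered over 47324, 52993, 51663 and 48372 bp. Between them in mean width came the region at Dnm3, which encodes dynamin 3 (42737, 58703, 57609 and 44208 bp), which had the largest ratio between its widest and narrowest list among the 10 broadest. The others of the 10 were at Hoxc10, Mrpl23, the histone genes around H2bc7, Hand2, a regulator of anterior and posterior limb identity, Poc1a, Lmx1b, which sets dorsal identity, and Tifab. Their mean widths over the lists ran from 21947 bp at Tifab to 38622 bp at Hoxc10.

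Narrow regions were mostly at genes of low score. The 10 narrowest, from Gm3696 (mean width 646 bp) to Gm44504 (798 bp), include Sap18b, Lipo3, Ndufb4b, Dpysl5, Map4k2, Acot4, Arxes1 and Gm6710. All but Gm3696, whose ranks were 57.0, 42.8, 47.5 and 50.1, ranked at or below 28.4 in every list. The 10 highest mean ranks were those of Poc1a, a centriole gene (97.5), Duxbl1, Uspl1, Fuz, a planar polarity effector of ciliogenesis, Ywhah, Gpsm3 with Pbx2, the collagen receptor gene Ddr2, Sde2, Tspan32 and the splicing kinase gene Prpf4b (96.1). In all, 549 of the 9790 regions lay at or above 3100 in every list, so the order among the top regions rests on the few scores above that value.

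The lists fell into pairs that cross the labels. Over the 9790 gene-end regions the Spearman correlation of ranks was 0.962 between the E11.5 control and the Sox9cKO-labelled E12.5 list and 0.967 between the E12.5 control and the Sox9null-labelled E11.5 list. The other 4 pairs of lists had values from 0.911 to 0.913. Covered widths gave the same pairs, with 0.912 and 0.924 against 0.867 to 0.875. These are descriptions over regions of single libraries, which share peak calling and the ceiling of the score. Regions away from gene ends showed the same pairs at lower correlations (0.872 and 0.876, against 0.681 to 0.724). The pairs are those of the stages in the deposited list names, and also of the lists with and without Tbx5 peaks, so stage, limb and library cannot be told apart.

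**Figure D2:**
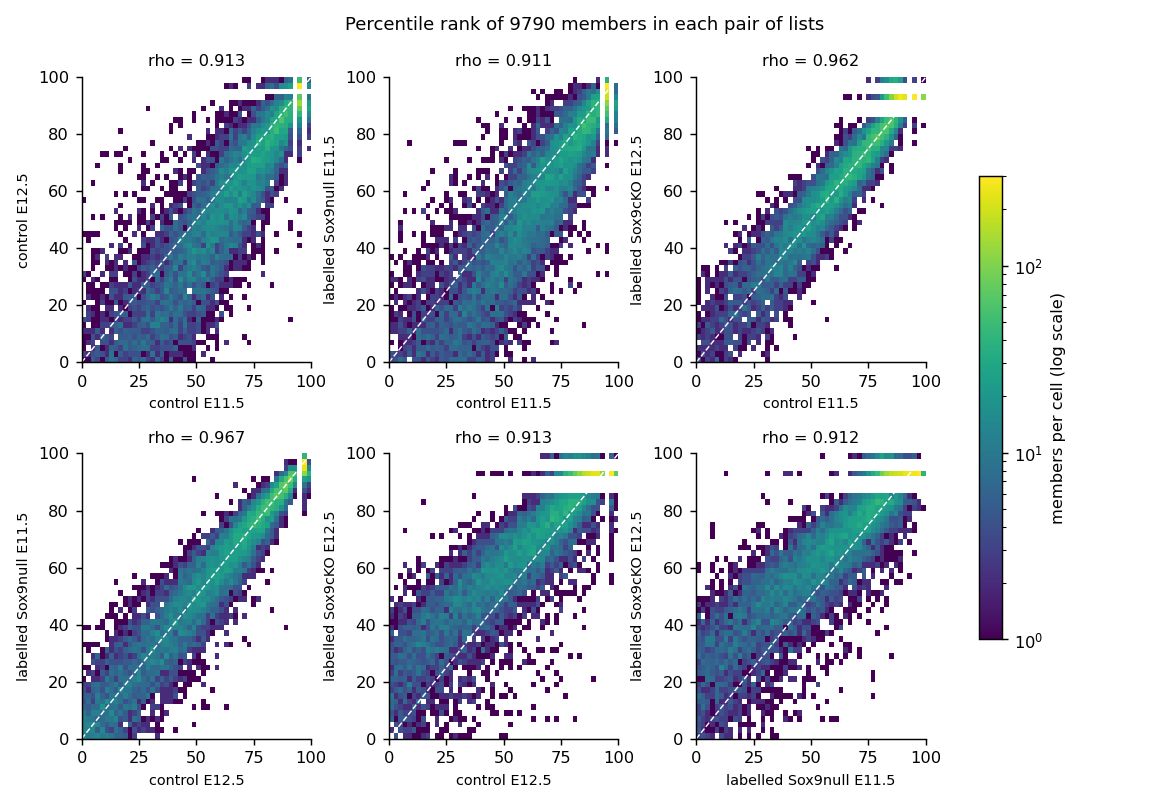
Percentile ranks of the 9790 gene-end regions in each of the 6 pairs of lists, with colour for the number of regions per cell on a log scale, a dashed line of equal rank and the Spearman correlation (rho) above each panel. The cloud is narrow for the E11.5 control with the Sox9cKO-labelled list (0.962) and for the E12.5 control with the Sox9null-labelled list (0.967), and empty bands near the top are the ranks below and above the scores tied at 3100.

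The comparison of the 2 controls asks how gene-end acetylation differs between E11.5 and E12.5, although the controls also differ at Tbx5. At E12.5 the gene-end regions ranked lower against the other shared regions, with a median difference of -4.52 points, against 4.12 for regions away from gene ends. By 20 points or more, 202 gene-end regions ranked higher and 1208 lower in the E12.5 control. Over all 19792 shared regions, 11.7% ranked higher and 9.53% lower by that much, so the gene-end share was below the background upward (2.06%) and above it downward (12.3%). The direction follows from ranking gene-end regions with all shared regions. Ranked among themselves, 490 were higher and 367 lower. Width was at least 2-fold wider at E12.5 in 145 gene-end regions and at least 2-fold narrower in 23 (112 and 44 with widths divided by the list's median), where all shared regions gave 9.87% and 0.445%. That is 1.48% and 0.235% of the gene-end regions, so a 2-fold gain of width was rarer at gene ends than over all shared regions.

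Of the 10 regions that ranked furthest higher in the E12.5 control, 6 lay at gene finishes, and all 10 were low in the E11.5 control. The Pdcd4 region (chromosome 19, 53891293 to 53896885), whose promoter is printed above, had scores of 98.9, 1211, 985 and 253 and ranks of 9.4, 73.3, 76.6 and 22.3. The region at the finish of Ccdc34 had ranks of 17.5, 80.3, 55.9 and 6.5, and widths of 1929, 7948, 7203 and 1991 bp. At the finish of Entpd6, a nucleotide phosphatase gene, the ranks were 6.6, 68.2, 59.3 and 7.2. In these 3 regions the E12.5 control and the Sox9null-labelled list were high, and the E11.5 control and the Sox9cKO-labelled list low, with no overlap. The same held for the finishes of the carboxypeptidase gene Cpa1 and of Hacd2, an enzyme of very long fatty acids, for Baalc, for Ttc30b, a gene of ciliary transport, and for the finish of Vwa8. In these 5, ranks were 44.1 to 88.6 in the first pair of lists and 5.4 to 29.4 in the second. Angptl1 (17.0, 73.4, 32.2 and 41.1) and the finish of Slc7a11, a cystine transporter gene (1.7, 58.0, 17.6 and 8.6), differed in that the E12.5 control alone stood high.

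The 10 regions that ranked furthest lower in the E12.5 control included a developmental timing gene, Lin28b, and the patterning gene Sall3. Lemd1 (chromosome 1, 132189809 to 132192733) had scores of 2809, 170, 216 and 2681 and ranks of 90.1, 15.5, 30.3 and 82.3. Tmem267 (chromosome 13, 119487138 to 119489486) had ranks of 72.9, 7.2, 6.7 and 73.4, with widths between 1806 and 2286 bp that did not go with the ranks. Lin28b, which encodes an RNA-binding repressor of microRNA maturation, had scores of 1191, 126, 103 and 1078 and ranks of 71.3, 9.4, 10.6 and 58.7. In all 3 the E11.5 control and the Sox9cKO-labelled list were the high ones, without overlap. The zinc finger gene Sall3, which acts in limb patterning, had ranks of 95.4, 40.1, 39.6 and 92.3, and its width moved too, from 5016 to 2448 bp between the controls. Also among the 10 were Gm40847, Nova1, Zfp978, Galnt2, which starts mucin-type glycosylation, and the ubiquitin ligase gene Marchf8, with ranks of 44.8 to 73.4 in the high pair and 1.0 to 39.0 in the low pair.

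**Figure D3:**
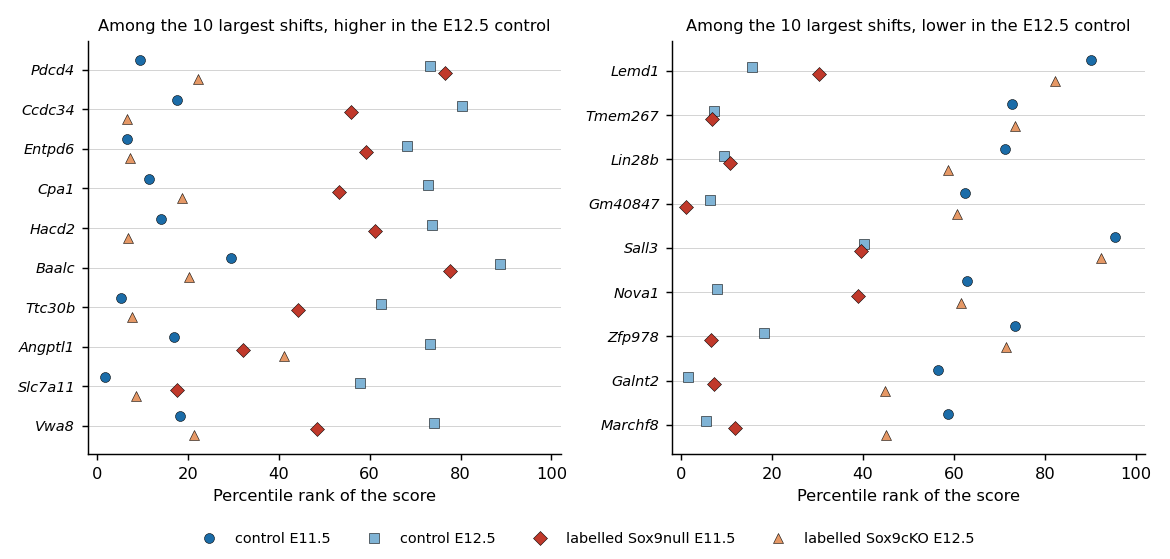
Percentile ranks (0 to 100) in the 4 lists of gene-end regions among the 10 that ranked furthest higher (left) and lower (right) in the E12.5 control than in the E11.5 control, 1 marker per library, offset vertically for legibility. The E12.5 control and the Sox9null-labelled list lie together against the other 2 lists in most rows, as at Tmem267 with 7.2 and 6.7 against 72.9 and 73.4.

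The promoters of regions on the 2 sides differed in sequence, which the rank did not use. Counted in the 300 bp windows of RefSeq's promoter table, promoters at the gene-end regions had a median of 22 CG dinucleotides (n = 9651), those in no region of any list 3 (n = 8820), and those in any other region 17 (n = 2791). With the gene-end promoters in 4 classes of equal size by the mean rank of their regions, the medians were 19, 22, 24 and 26 from the lowest class to the highest. Promoters at regions that ranked at least 20 points higher in the E12.5 control had a median of 11 (lower and upper quartile 6 and 20, n = 127), as in the Pdcd4 and Angptl1 sequences above. Those at regions at least 20 points lower had 23 (quartiles 16 and 31, n = 1126), the same median as the regions within 20 points. Regions that ranked higher also touched a known gene start less often (54.5% against 78.5% and 78.2%) and a finish alone more often (19.8% against 1.82% and 3.23%), and were broader, with a median union width of 3461 bp against 1901 and 2481 bp.

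**Figure D4:**
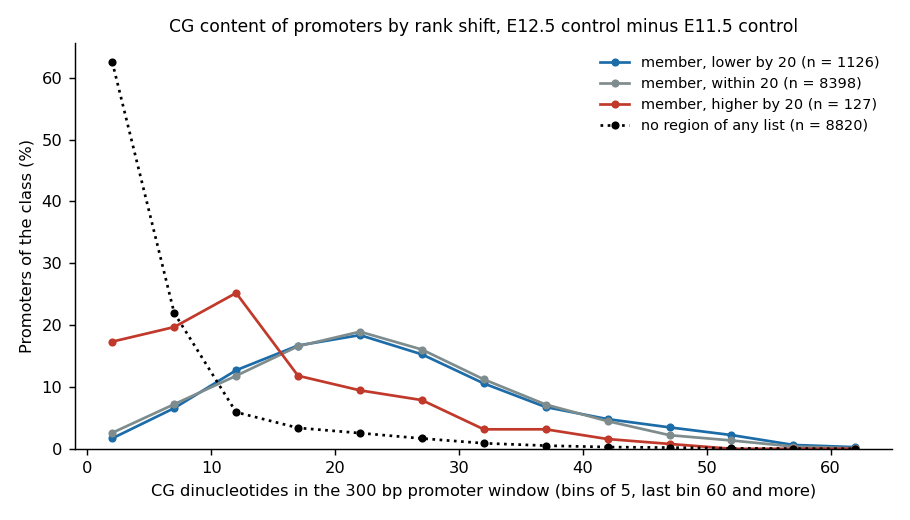
Share of promoters (percent of each class) by the number of CG dinucleotides in the 300 bp window, in bins of 5, for promoters at gene-end regions that ranked at least 20 points lower, within 20 points, or at least 20 points higher in the E12.5 control than in the E11.5 control, and for promoters in no region of any list (dotted). The lower and middle classes overlie each other with medians of 23, the higher class has a median of 11, and the unmarked promoters have a median of 3.

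Of 10 motifs searched on both strands, 5 were held by far more gene-end promoters than unmarked ones, and each of those contains CG. The GC box GGGCGG, bound by SP and KLF factors, was in 69.2% of the promoters at gene-end regions, 16.7% of those in no region and 46.2% of all 21262. The ETS core CCGGAA was in 31.6, 5.46 and 18.7%, and the NRF1 core GCGCATGC, bound by a regulator of respiratory genes, in 6.25, 0.850 and 3.51%. The cAMP response element TGACGTCA was in 3.56, 0.896 and 2.23% and the E-box CACGTG in 10.6, 4.55 and 7.84%. Motifs without CG differed less or in the other direction. The CCAAT box was in 38.8, 38.9 and 38.2%, the YY1 core AAGATGG in 7.502, 5.62 and 6.24%, and the TATA box TATAAA in 5.94, 21.7 and 12.6%. The SOX cores ACAAAG and ACAATG were in 12.55 and 6.30% of the gene-end promoters, 22.3 and 17.3% of the unmarked ones and 16.8 and 11% of all. No motif contains another, each promoter was counted once per motif, and matches of different motifs may overlap. A match to such short letters depends on base composition, and the promoters' CG medians differ as given above.

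In regions that ranked at least 20 points higher at E12.5, TATAAA was in 14.96% of 127 promoters and the GC box in 55.1%. In those that ranked at least 20 points lower, they were in 5.51% and 72.0% of 1126. The ETS core was in 16.5% and 32.1%. ACAAAG was in 13.4% and 12.1%, which is close to its share over all gene-end promoters.

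By label, the list labelled Sox9null E11.5 against the E11.5 control repeats much of the difference between the controls, and they share the E11.5 control. In the list labelled Sox9null, 197 gene-end regions ranked at least 20 points higher and 1275 at least 20 points lower, with background shares over all shared regions of 11.6% and 9.75%. The gene-end shares were 2.01% and 13.02%, and the median difference was -4.68 points. Ranked among themselves, 487 were higher and 420 lower, and ranked among all peaks of each list 46 and 1797. At least 2-fold wider were 95 regions and at least 2-fold narrower 33 (78 and 46 with widths divided by the list's median), with a background of 8.87% and 0.495%. If the 2 deficient lists are exchanged, as their deposited names would have it, the comparison with the E11.5 control gives 91 higher and 45 lower regions. Away from gene ends it gives 273 and 247 of 10002. Both directions together, that is 1.39% of the gene-end regions and 5.20% of the others.

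Of the 10 regions that ranked furthest higher in the list labelled Sox9null, Pdcd4, Entpd6, Baalc and Hacd2 are described above. At the start of Pde7b, a cAMP phosphodiesterase gene, the ranks were 30.6, 77.5, 76.9 and 14.4. The finish of Ippk, which encodes an inositol phosphate kinase, lies 278 bp from its region, with ranks of 39.4, 82.0, 86.0 and 29.1. Both were high in the E12.5 control too, and lower in the list labelled Sox9cKO than in any other. Acvrl1, a TGF-beta family receptor gene of vessels, had ranks of 24.1, 65.5, 71.3 and 30.6, and the adhesion gene Alcam had 6.4, 44.0, 52.5 and 28.7. The egg coat gene Zp2 had 19.2, 48.1, 67.1 and 43.3, and Cabcoco1 had 17.2, 69.0, 62.5 and 17.1. In each of these 4 the E12.5 control too was above the E11.5 control, and at Zp2, Alcam and Acvrl1 the list labelled Sox9cKO was also above it.

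Regions that ranked furthest lower in the list labelled Sox9null included those at Hoxb2 and Pkdcc. Hoxb2 had scores of 2194, 386, 116 and 3100 and ranks of 85.6, 38.0, 13.4 and 92.3. Pkdcc, a secreted kinase needed for the growth of long bones, had ranks of 70.5, 35.8, 7.0 and 74.99 and widths of 3653, 3118, 1049 and 5340 bp. At both, the list labelled Sox9null was the lowest of the 4. The region at the start of the DNA repair gene Alkbh2, which also touches an end of Ung, had ranks of 63.9, 33.7, 1.5 and 59.8. The start of the LIM domain gene Lmo1 had 72.9, 44.8, 14.6 and 61.9. The start of Eif4enif1, whose protein binds a cap-binding translation factor, had 95.4, 45.6, 30.2 and 92.3. In these 5 regions the E12.5 control lay between the list labelled Sox9null and the 2 high lists. The other 5 of the 10 were Zfp978, Tmem267, Gm40847, Lin28b and Lemd1.

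By label at E12.5 the direction was the opposite. The list labelled Sox9cKO ranked 1194 gene-end regions at least 20 points higher than the E12.5 control and 179 at least 20 points lower, with a background of 9.01% and 11.3%. The gene-end shares were 12.2% and 1.83%, and the median difference was 5.48 points. Ranked among themselves, 405 were higher and 443 lower. Widths were at least 2-fold wider in 60 and at least 2-fold narrower in 69, against 0.965% and 5.69% of all shared regions. With the 2 lists exchanged, the comparison with the E12.5 control gives 119 higher and 155 lower regions. Away from gene ends it gives 468 and 502 of 10002. Both directions together, that is 2.80% of the gene-end regions and 9.70% of the others. The 10 regions furthest higher were Lemd1, Tmem267, Gm40847, Hoxb2, Nova1, Zfp978 and Sall3, given above or in the plot of the controls, and 3 others. Taco1, a gene of mitochondrial translation, had ranks of 55.3, 5.6, 28.3 and 56.8, and Cbln1 had 38.5, 0.040, 19.3 and 49.9. The region at the start of Xab2, which also touches ends of Pet100 and Pcp2, had 49.6, 2.5, 16.7 and 52.7. At each of these 3 the E12.5 control was the lowest list. The 10 furthest lower were Ccdc34, Baalc, Hacd2, Pde7b, Entpd6, Ttc30b, Cpa1, Ippk, Vwa8 and Cabcoco1, all described above.

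Setting the mean of the Sox9-deficient lists against the mean of the controls does not depend on which deficient list is which, and addresses which gene-end acetylation goes with the loss of Sox9. Few gene-end regions differed. By 20 points or more, 16 ranked higher and 19 lower, with a background over all shared regions of 0.591% and 0.819%. The gene-end shares were 0.163% and 0.194%, below those backgrounds, and the median difference was -0.37 points. Ranked among themselves 15 were higher and 11 lower, and ranked among all peaks of each list 12 and 45. At least 2-fold wider were 2 regions and at least 2-fold narrower 5 (0 and 6 with widths divided by the list's median), against 0.263% and 0.202%. Without the E11.5 control, 268 ranked higher and 83 lower, and without the E12.5 control 69 and 292. Without the list labelled Sox9null 227 ranked higher and 59 lower, and without the list labelled Sox9cKO 55 and 405, so the number and the balance of directions rest on which lists enter. With a list left out, or with ranks among all peaks of each list, the shares over all shared regions were not counted. Ranks in both deficient lists at least 5 points above both controls were found in 133 regions and at least 5 points below in 97, with a background of 2.37% and 2.18%. These are 1.36% and 0.991% of the gene-end regions, and 27 and 65 regions when ranked among all peaks of each list.

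Gene-end regions that ranked higher in the deficient lists came from genes of varied function. Of the 20 regions with the largest differences of the means, 10 each way, many depended on the ranking. Ranked among gene-end regions alone, 10 stayed past 20 points, and ranked among all peaks of each list 8. Without the E12.5 control 8 stayed, and without the E11.5 control, the list labelled Sox9null or the list labelled Sox9cKO 16, 14 and 16. In these settings 0 changed direction. Fez1 (chromosome 9, 36821021 to 36822784) had scores of 218, 162, 371 and 666 and ranks of 26.1, 14.4, 47.0 and 46.4. Ap2s1 (chromosome 7, 16737348 to 16739881) had scores of 248, 304, 448 and 1091 and ranks of 29.4, 31.0, 53.4 and 59.0. At both, each deficient list was above each control, by 20 points or more. Tapbpl, which encodes a peptide editor of MHC class I and shares its region with Cd27, had ranks of 3.3, 15.5, 34.9 and 30.1, and Layn, a hyaluronan receptor gene, 1.6, 12.47, 31.2 and 26.4. Asb4, a gene of a ubiquitin ligase subunit, had scores of 1151, 992, 1669 and 3100 and ranks of 70.4, 67.5, 88.3 and 92.3. At Tapbpl, Layn and Asb4 the deficient lists also lay above both controls with no overlap.

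In others of the 10, a single control ranked well below every other list. At Cygb and Zp2 a deficient list also stood well above the rest. The limb T-box gene Tbx2 had ranks of 90.5, 49.7, 90.4 and 92.3, with near equal widths of 15601 to 16417 bp. The parvin gene Parvb had 52.4, 15.4, 55.7 and 60.8, and the globin gene Cygb 53.7, 29.96, 53.9 and 72.0. At these 3 the E12.5 control was low and the E11.5 control near the list labelled Sox9null. At Zp2 the E11.5 control was the low one, and the E12.5 control ranked above the list labelled Sox9cKO.

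The 10 regions that ranked furthest lower in the deficient lists were at genes of varied function, of which Foxc1 and Nog are in the gene lists used here. Foxc1 (chromosome 13, 31805492 to 31812483), a forkhead factor that acts in skeletal development, had scores of 817, 2420, 286 and 1016 and ranks of 61.0, 89.1, 39.1 and 57.1. Nog, which encodes the BMP antagonist noggin, had ranks of 37.4, 71.6, 35.2 and 27.02 and widths of 2004, 5981, 2071 and 1890 bp. Lfng, which encodes a glycosyltransferase that modifies Notch, had 46.1, 53.4, 22.8 and 28.3. At all 3 both deficient lists lay below both controls, but at Nog and Foxc1 the E11.5 control was within 5 points of the nearest deficient list. Cthrc1, a secreted protein with collagen repeats, had ranks of 24.2, 53.1, 11.54 and 5.0. At the finish of Aopep, an aminopeptidase gene, the ranks were 26.0, 62.0, 10.6 and 10.5 and the widths 3268, 5001, 1080 and 1821 bp, and the finish of Gzmm, a granzyme gene, had 30.1, 49.3, 10.8 and 1.8. Both deficient lists lay more than 5 points below the lower control at Aopep, Gzmm and Cthrc1.

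Ebf3, a transcription factor gene, had ranks of 17.8, 54.7, 11.97 and 15.4, so that the E12.5 control alone stood apart. Psat1, an enzyme gene of serine synthesis, had 55.0, 65.3, 32.8 and 43.2. Siah2, a ubiquitin ligase gene, had 37.3, 52.4, 12 and 31.4. At Tox3 the ranks were 80.6, 54.1, 25.4 and 55.9, and the list labelled Sox9cKO overlapped the controls. The largest width ratios of the deficient to the control mean were 2.05 at Dgka, a lipid kinase gene (1635, 931, 2243 and 3021 bp), and 2.01 at Grrp1 (1241, 1267, 1175 and 3871 bp), and next came Krtcap2, Tapbpl and Gpa33. The smallest were 0.351 at Aopep, 0.446 at Tspan12, 0.462 at Nln, 0.468 at Scn4a and 0.496 at Nog.

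**Figure D5:**
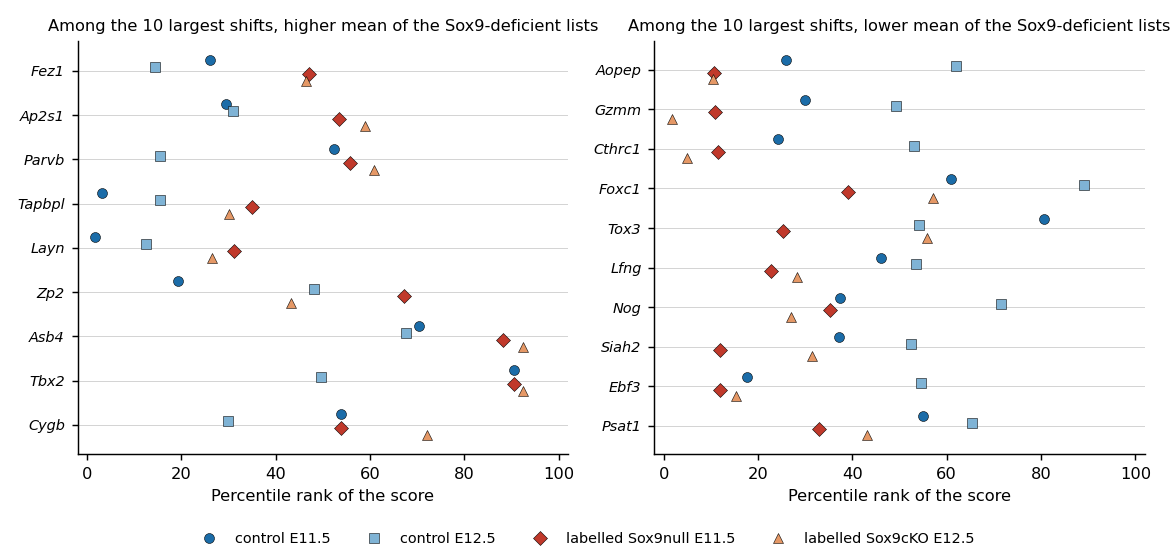
Percentile ranks (0 to 100) in the 4 lists of gene-end regions among the 10 whose mean rank in the Sox9-deficient lists was furthest above (left) and below (right) the mean of the controls, 1 marker per library, offset vertically for legibility. Fez1, Ap2s1 and Asb4 have both deficient lists above both controls, whereas at Tbx2 the E12.5 control alone is low, with 49.7 against 90.4 to 92.3.

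Of 20 genes of cartilage matrix, 8 had a shared gene-end region, beside 50.6% of all protein-coding genes, with median ranks of 53.1, 72.2, 63.8 and 51.8, against 69.2, 63.8, 63.7 and 69.5 over all 9790. Their median difference between the deficient and the control means was -13.1 points, against -0.37 over all, and none passed 20 points. Col2a1, the main cartilage collagen, had ranks of 95.4, 96.1, 88.4 and 76.8 with widths between 4691 and 5279 bp, Col9a3, a chain of collagen IX, 14.3, 29.6, 5.5 and 0.7, and Papss2, which makes the sulphate donor of proteoglycans, 36.3, 41.0, 17.9 and 26.8. In these 3 of the 8 regions both deficient lists ranked at least 5 points below both controls. The share was 0.991% over all gene-end regions and 2.18% over all shared regions. The same held for 3 of the 53 regions at chromatin regulators. Col9a2 (47.6, 78.4, 64.9 and 28.6) and Chst11, a chondroitin sulphotransferase gene (43.7, 63.7, 33.5 and 47.9), had deficient lists on either side of the E11.5 control. Col11a1 (65.1, 80.3, 77.9 and 70.1), Hapln1 (58.7, 79.2, 66.4 and 55.7) and Wwp2 (73.4, 66.1, 62.6 and 69.7) are the remaining 3. Col9a1, Col11a2, Acan, Matn1, Ucma and Epyc had no gene-end peak in any list.

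Chondrogenic regulators ranked high, and 19 of 28 had a shared gene-end region, 12 of them with a score at or above 3100 in at least 1 list. By 20 points on the means, 2 ranked lower in the deficient lists (Foxc1, above, and Nfix with 56.9, 24.2, 22.8 and 15.6) and 0 higher, beside 19 and 16 of 9790. Sox6, the partner of Sox9 and Sox5 in chondrocytes, had ranks of 95.4, 96.1, 89.8 and 83.1 and widths of 7416, 10842, 6351 and 4685 bp, with both deficient lists at least 5 points lower. Sox5 had ranks of 83.0, 68.7, 67.5 and 78.0, and the region at Sox9 itself 95.4, 96.1, 95.8 and 92.3, at or next to the ceiling in each list. The Sox9 region covered 7800, 8770, 7764 and 6605 bp. Foxp2 had ranks of 88.4, 96.1, 86.3 and 74.3, and Runx1, a factor of early chondrogenesis and of blood, 13.9, 8.7, 3.4 and 6.0. At Foxp2 and Runx1 both deficient lists were below both controls, by less than 5 points at the nearest pair. Arid5b, Trps1, Nfib, Hes1 and Smad3 had scores of exactly 3100 in all 4 lists.

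Limb patterning regulators were nearly all in the set, with 39 of 43 genes at 43 regions, 30 of which reached 3100 in at least 1 list. Their median widths, 6806, 5185, 4742 and 7265 bp, were above those of all gene-end regions. Between the controls, 8 of the 43 ranked at least 20 points lower at E12.5 and 0 higher, beside 1208 and 202 of 9790. Those 8 include Sall3 above and Alx4, a homeobox gene of the anterior limb, with 90.9, 47.3, 40.2 and 92.3. Meis2, a proximal limb gene, had 95.4, 74.1, 69.5 and 92.3, Grem1, a BMP antagonist of the limb bud, 44.8, 22.4, 24.4 and 56.2, and Etv4, a target of FGF signalling, 87.4, 61.1, 39.6 and 92.3. In each of these 4 the list labelled Sox9cKO was above both the E12.5 control and the Sox9null-labelled list. Prrx1, Pitx1, Gli3, Hand2, Msx1, Twist1, Lmx1b, Lhx9 and Ptch1 were at exactly 3100 in all 4 lists. Irx3 had 55.3, 37.4, 8.8 and 62.4, and Etv5 87.1, 82.8, 45.2 and 92.3, with the list labelled Sox9null alone far below.

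The 17 of 20 HoxA and HoxD genes in the set lie in 7 regions, so they are not 17 separate values. Outside the 2 broad clusters, Hoxd8 had ranks of 95.4, 52.9, 40.3 and 92.3 and Hoxd3 79.9, 36.8, 29.3 and 85.0. Widths went with the ranks, at 4540, 2287, 2049 and 5709 bp for Hoxd8 and 4520, 1902, 1824 and 4222 bp for Hoxd3. Hoxa2 had ranks of 37.0, 7.7, 27.7 and 31.6. None of the 7 differed by 20 points between the deficient and the control means.

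Of 24 genes of BMP signalling and joint formation, 22 were in the set, and 1 region (Nog, above) ranked lower by 20 points on the means. Bmp2 had ranks of 68.9, 89.6, 84.3 and 80.3, Gdf5, a marker of the forming joint, 59.6, 76.9, 80.1 and 61.2, and the inhibitory Smad6 was at 3100 in all lists. Osr2 had 70.4, 76.6, 48.3 and 70.8. Between the controls, 4 of the 23 regions ranked at least 20 points higher at E12.5 and 0 lower, beside 202 and 1208 of 9790. They are Bmp2, Bmp5 (22.1, 44.9, 46.7 and 19.8), Nog and the joint factor gene Erg (27.4, 68.7, 57.9 and 25.1). The Erg region counts in the endothelium list too, where 1 of 5 regions ranked higher by that much and 1 lower.

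Tendon and connective tissue genes had higher median ranks in the E12.5 control and the Sox9null-labelled list. With 13 of 18 genes in the set, median ranks were 68.3, 89.3, 85.8 and 66.0, and 4 of 13 ranked at least 20 points higher in the E12.5 control than in the E11.5 control, with 0 lower, beside 202 and 1208 of 9790 over all gene-end regions. The 4 were Dcn, a small proteoglycan gene (41.1, 84.1, 82.0 and 52.9), its neighbour Lum (54.3, 81.9, 80.6 and 55.2), Col12a1 (68.3, 91.2, 86.2 and 65.2) and the tendon factor Mkx (35.97, 71.3, 65.7 and 32.0). Widths at Dcn were 2179, 4982, 4920 and 3800 bp. None of the 13 differed by 20 points between the deficient and control means.

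Genes of ribosomes, respiration, splicing, chromatin and the cell cycle were nearly all in the set. All 63 ribosomal protein genes were in the set, at 68 regions with median ranks of 86.6, 81.0, 82.0 and 92.3, the last at the ceiling of its list, and 5 of them ranked at least 20 points lower in the E12.5 control than in the E11.5 control and 0 higher, beside 1208 and 202 of 9790 over all gene-end regions. Of the 2 regions at Rpl4 one had 41.0, 14.6, 11.2 and 31.8 and the other, near or at the ceiling, 95.4, 96.1, 95.9 and 92.3. Rpl18 had 40.8, 16.7, 22.0 and 36.3. Of 41 respiratory chain genes 39 were in the set, at 44 regions with median ranks of 69.3, 59.9, 63.9 and 71.7 and 3 lower at E12.5, including Atp5d (49.1, 12.9, 10.9 and 32.4). In the list labelled Sox9null 6 of the 44 ranked at least 20 points lower than in the E11.5 control, beside 1275 of 9790. Rps2 and Ndufb10 touch the same 2 regions, with ranks of 79.8, 70.9, 64.8 and 81.1 at the first and 51.7, 32.8, 41.2 and 54.9 at the second, so these values count in both lists. Of 30 splicing factor genes 29 were in the set and 0 of 32 regions passed 20 points in any comparison. Of those 32 regions, 25 had a score at or above 3100 in at least 1 list, where ties limit the rank differences. Chromatin regulators (47 of 51 genes) and cell cycle genes (34 of 35) had 3 of 53 and 3 of 38 regions that ranked at least 20 points lower in the E12.5 control, among them Dnmt3b, a DNA methyltransferase (68.2, 29.9, 48.4 and 63.6), Tet1 (69.4, 40.7, 47.4 and 59.9) and the cyclin gene Ccne1 (88.2, 57.9, 66.6 and 79.0). At Kat6b, an acetyltransferase gene, 1 of 2 regions ranked higher by that much (61.9, 89.0, 87.6 and 82.6). In none of these 5 gene lists did a region differ by 20 points between the deficient and the control means.

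Immediate early genes, which respond to handling of tissue, had 21 of 24 members in the set. Their median ranks were 68.1, 72.5, 76.8 and 65.5, and 4 of 24 regions ranked at least 20 points higher in the list labelled Sox9null than in the E11.5 control and 1 lower, beside 197 and 1275 of 9790. Junb had 45.3, 57.0, 73.6 and 55.0 and Dusp1 56.5, 65.9, 79.9 and 66.0 at the lower of its 2 regions, whereas Fos had 69.9, 59.0, 62.0 and 65.0. Of 23 genes of glycolysis and hypoxia, 19 were in the set, and the hexokinase gene Hk2 had 32.3, 64.4, 56.7 and 23.0 at the lower of its 2 regions. The part of handling in any difference was not tested.

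Markers of other cell types of the limb bud were partly in the set, beside 50.6% of all protein-coding genes. For skeletal muscle, 8 of 22 genes were in it, with median ranks of 56.8, 55.6, 53.7 and 52.6. Endothelium had 4 of 19 (medians 27.4, 11.7, 14.7 and 25.1), blood 3 of 17, ectoderm 3 of 18, and nerve and glia 5 of 14. The E11.5 control and the Sox9cKO-labelled list were the longest, with 36045 and 36937 peaks against 32821 and 28419. How many of all protein-coding genes have a gene-end peak in each list was not counted. Counting marker genes with a gene-end peak, shared or not, the E11.5 control and the Sox9cKO-labelled list also held more than the other 2 lists. The numbers were 12, 9, 9 and 13 of 22 for muscle, 8, 6, 6 and 10 of 19 for endothelium, 6, 3, 3 and 8 of 17 for blood and 10, 7, 4 and 11 of 18 for ectoderm. Summed scores did not always go with these numbers. They were 8178, 10568, 7550 and 10799 for muscle and 4222, 4705, 3959 and 4593 for endothelium, with the E12.5 control above the E11.5 control. For blood they were 889, 612, 525 and 2052 and for ectoderm 1640, 1557, 611 and 2768, with the E11.5 control the higher. The scores have no stated scale, and sums over ribosomal protein genes also differed between lists (145831.8, 111298.3, 82907.8 and 179214.5). All 63 of those genes had a gene-end peak in every list, so such sums do not measure marker content between lists. The defining markers Cdh5, Gata1, Ptprc, Trp63, Krt14, Myod1 and Sox10 had no gene-end peak in any list, where peaks more than 1000 bp inside the gene do not count. Eya2, a muscle precursor gene (5.8, 4.4, 14.2 and 31.3), ranked at least 5 points above both controls in both deficient lists. The share of these cell types in the differences between lists was not tested.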

How the data were processed

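H3K27ac chromatin immunoprecipitation and sequencing libraries of mouse limb buds were used, 1 for each of 4 groups, and 20 other libraries of the series were not analysed here. The deposited lists give each peak's position and a score that is the authors' own, with no header and no stated scale. Differences in score between lists were therefore measured by ranks within a list. Scores, and medians and sums of them, are also printed, but on no known common scale. The submitters' processing notes name mm10 as the build, and CASAVA 1.8 and deepTools among the tools. Peak names in the deposited lists begin with MACS. Its version and settings, any input control and the aligner were not given in the sources used here. There is 1 list for each sample, so no list rests on pooled samples. Depth in reads is unknown, and peak number, width and score move with it.

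Peaks overlapping by 1 bp were merged, and regions in all 4 lists within 1000 bp of a protein-coding gene end were kept. A region's score was its highest peak score and its rank the percentile among regions shared by the 4 lists, with the mean rank for ties. Differences are given past 20 percentile points, past 2-fold in width, and, for both deficient against both control lists, past 5 points without overlap. Genes and promoters came from RefSeq tables of GRCm38.p6. Of 21883 protein-coding genes, 17491 (79.9%) had a promoter entry and so a known strand. Intervals are Wilson 95% intervals and cover counting error only.

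The rule names, for each of 4 comparisons, the 10 largest rank differences each way by nearest gene, the 10 broadest, narrowest and highest regions, the 5 largest width ratios each way, the 3 regions on each side of the 1000 bp limit, and any member of 18 gene lists (cartilage matrix, chondrogenic regulators, limb patterning, HoxA and HoxD, BMP and joint, tendon and connective tissue, skeletal muscle, endothelium, erythroid and macrophage, ectoderm, nerve and glia, ribosomal proteins, respiratory chain, splicing, chromatin, cell cycle, immediate early, glycolysis and hypoxia). A few of the regions named by it are left out here. The regions, gene lists and rules were chosen with earlier results of these data known. Alternatives were stricter lists, equal numbers of top peaks, autosomes alone, other gene-end, merging, ranking and threshold choices, single-peak regions, the exchanged deficient lists and each list left out; leaving out regions at the top score was chosen after seeing the data. The scripts were tested on simulated data. Scripts ran under Python 3.11.15 with pandas 2.3.3, matplotlib 3.10.9, scipy 1.17.1 and numpy 2.4.6.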

Additional observations from a re-analysis of the deposited data

Results flagged for a closer look

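The median rank difference of the 9790 gene-end regions had opposite signs at the 2 labelled stages, with -4.68 points in the list labelled Sox9null against its control and 5.48 points in the list labelled Sox9cKO against its control. This difference between the comparisons was not tested, since each group has 1 library. With the deficient lists exchanged the counts of regions past 20 points were 91 higher and 45 lower at E11.5, and 119 higher and 155 lower at E12.5. Away from gene ends they were 273 and 247, and 468 and 502, of 10002 regions.

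The same opposite signs, again untested, are given here only for the 11 regions named among the furthest from the control in both labelled comparisons. Other named regions also had opposite signs. Pdcd4 differed from the control by 67.2 points in the list labelled Sox9null and by -51.0 in the list labelled Sox9cKO. At Sall3 these differences were -55.8 and 52.2 points. The rank difference in the list labelled Sox9cKO minus that in the list labelled Sox9null was 132.3 points at Tmem267, 126.6 at Lemd1, 126.5 at Hoxb2, 120.0 at Zfp978 and 115.9 at Gm40847, which ranked lower in the list labelled Sox9null and higher in the list labelled Sox9cKO than in their controls. It was -116.7 points at Baalc, -113.9 at Hacd2, -113.5 at Entpd6, -109.5 at Pde7b, -99.5 at Ippk and -97.1 at Cabcoco1, which went the other way. In all 11 the E12.5 control and the Sox9null-labelled list were on the same side of the other 2 lists.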

How the results depend on the processing

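Counts past 20 points or 2-fold width are given as totals of both directions, and the cause of each change was not tested unless the alternative itself removes regions. Ranked among the gene-end regions alone, totals past 20 points were 857 between the controls, 907 for the list labelled Sox9null, 848 for the list labelled Sox9cKO and 26 for the deficient mean, each with the other direction in the majority, and 373 regions did not overlap. Ranked among all peaks of each list, where the number of peaks in a list enters, the deficient mean gave 57 and 92 did not overlap, mostly lower. The width-weighted mean score gave 46 for the deficient mean, mostly higher. Thresholds of 10 and 30 points gave 3778 and 452 between the controls, 3857 and 479 for the list labelled Sox9null, 3915 and 399 for the list labelled Sox9cKO, and 654 and 3 for the deficient mean. With the deficient lists exchanged, totals by rank were 136 at E11.5 and 274 at E12.5, in the other direction, and by width 57 and 36.

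Changes of 2-fold in width fell to 81, 81, 49 and 4 for the 4 comparisons in the same order when only the upper 50% of peaks by score were used, which leaves fewer regions, the last mostly wider. With single-peak regions alone they were 111, 74, 79 and 3, and the deficient mean gave 22 past 20 points. With gene starts alone they were 101 between the controls, 89 for the list labelled Sox9cKO and 3 for the deficient mean, the last 2 mostly wider, and the deficient mean gave 21 past 20 points. Joining peaks within 500 bp gave 12 for the width of the deficient mean. Leaving out the E11.5 control, the E12.5 control, the list labelled Sox9null or the list labelled Sox9cKO gave 351, 361, 286 and 460 by rank for the deficient mean and 34, 58, 42 and 22 by width, with directions as in the report for rank and mostly wider only without the E12.5 control.

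Of named regions, exchanging the deficient lists turned the difference from the E11.5 control at Baalc (-9.18), Hacd2 (-7.15), Ippk (-10.3), Pde7b (-16.2), Cabcoco1 (-0.081), Hoxb2 (6.71), Tmem267 (0.50) and Pkdcc (4.46), and that from the E12.5 control at Tmem267 (-0.47), Gm40847 (-5.32), Hoxb2 (-24.7), Zfp978 (-11.8), Sall3 (-0.54) and Ippk (3.93). The number of gene-end regions was 9561 with a 500 bp window and 8313 with gene starts alone. Unknown depth limits every comparison of ranks near the lowest scores.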
